A study of Mus musculus with 4 samples.

Results

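The genes described here encode the proteins of the mitochondrial ribosome, as measured in bone marrow KLS cells (Lin- c-Kit+ Sca-1+, the sorted fraction that holds hematopoietic stem cells and early progenitors) with and without a working Klf7 gene, going by their labels. Klf7 is a transcription factor with zinc fingers, of the Kruppel-like family. Members were all genes whose platform symbol starts with Mrpl or Mrps followed by a digit, taken from probe sets with a single symbol. They numbered 77 of 19938 named genes and were carried by 85 probe sets, of which the brightest over the 4 arrays stood for each gene. By symbol, 48 belonged to the large subunit and 29 to the small subunit, and none of the 77 lies on a sex chromosome. The 2 arrays labelled Klf7-/- and the 2 labelled Klf7+/+ all held cells of the C57Bl/6 strain, from marrow chimeras in which fetal liver cells of both genotypes had been mixed. How the genotypes were told apart, how many animals were used, their age and what was deleted from Klf7 are not given in the sources used here. The errors and p-values below therefore cover only the spread among these 4 samples, and that spread may be technical.

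Mitochondria carry ribosomes of their own, which translate the few messenger RNAs made from mitochondrial DNA into core subunits of the respiratory chain and ATP synthase. The ribosomal RNAs come from mitochondrial DNA, whereas the proteins are encoded in the nucleus, made in the cytosol and imported. Some of these proteins have counterparts in bacterial ribosomes, and others are found in mitochondria alone. Resting hematopoietic stem cells are known for relying little on respiration and for raising mitochondrial activity as they divide and differentiate.

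No mitochondrial ribosomal protein gene passed the threshold. With limma fitted over 28939 probe sets, 0 of 77 members had a Benjamini-Hochberg adjusted p under 0.05, where 0.00346% of all probe sets did, and their adjusted p ran from 0.945 to 1. At an unadjusted p under 0.05 stood 10 members, where 4.81% of all named genes did. Each difference below is the knockout mean minus the wild-type mean, in log2 units, with the moderated standard error (SE, n = 2 per group), and none passed. The median SE of a member was 0.279, so 2 arrays per group leave wide intervals around each value.

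The members spread to both sides of 0. In knockout, 29 members (37.7%) read lower and 48 higher, where 55.0% of all named genes and 48.7% of named genes above the median level read lower. Their median difference was 0.10, against -0.03 over all named genes and 0.01 over those above the median level of 5.77 (log2 intensity), a level that 73 of the 77 members exceeded. These figures moved with single arrays. Without knockout replicate 1 the median was -0.09 and 46 members read lower, and without wild-type replicate 2 the median was 0.02 with 38 lower. The large subunit had a median of 0.10 (18 lower, 30 higher) and the small subunit a median of 0.12 (11 lower, 18 higher), and both medians were below 0 without knockout replicate 1, at -0.08 and -0.09.

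Over all named genes, the arrays of the 2 genotypes did not overlap in 33.2%. Among the members they did not overlap for 13 that read lower in knockout (16.9%, against 18.6% of all named genes and 14.9% of those above the median level) and for 19 that read higher (24.7%, against 14.5% and 17.9%). Of these, 4 lay at least 1.5-fold lower (5.19%, against 2.09% of all named genes and 2.87% of those above the median level) and 9 at least 1.5-fold higher (11.7%, against 3.04% and 5.0%). At the probe sets used, Mrps12 alone reached a 2-fold difference without overlap on the lower side and Mrps17 alone on the higher side. Of all named genes 0.487% and 0.732% reached it. The dimmer probe set of Mrpl27, which was not used, differed by 1.005 ± 0.41 without overlap, which is also 2-fold. With an offset of 32 added to the intensities, the 4 lower members became 2. Without knockout replicate 1 the 4 lower members became 13, and without wild-type replicate 2 they became 12. Higher members went from 9 to 16 without knockout replicate 2 and to 15 without wild-type replicate 1. Fewer arrays make overlap easier to avoid for any gene, and the shares over all named genes with an array left out are not given here.

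**Figure D1:**
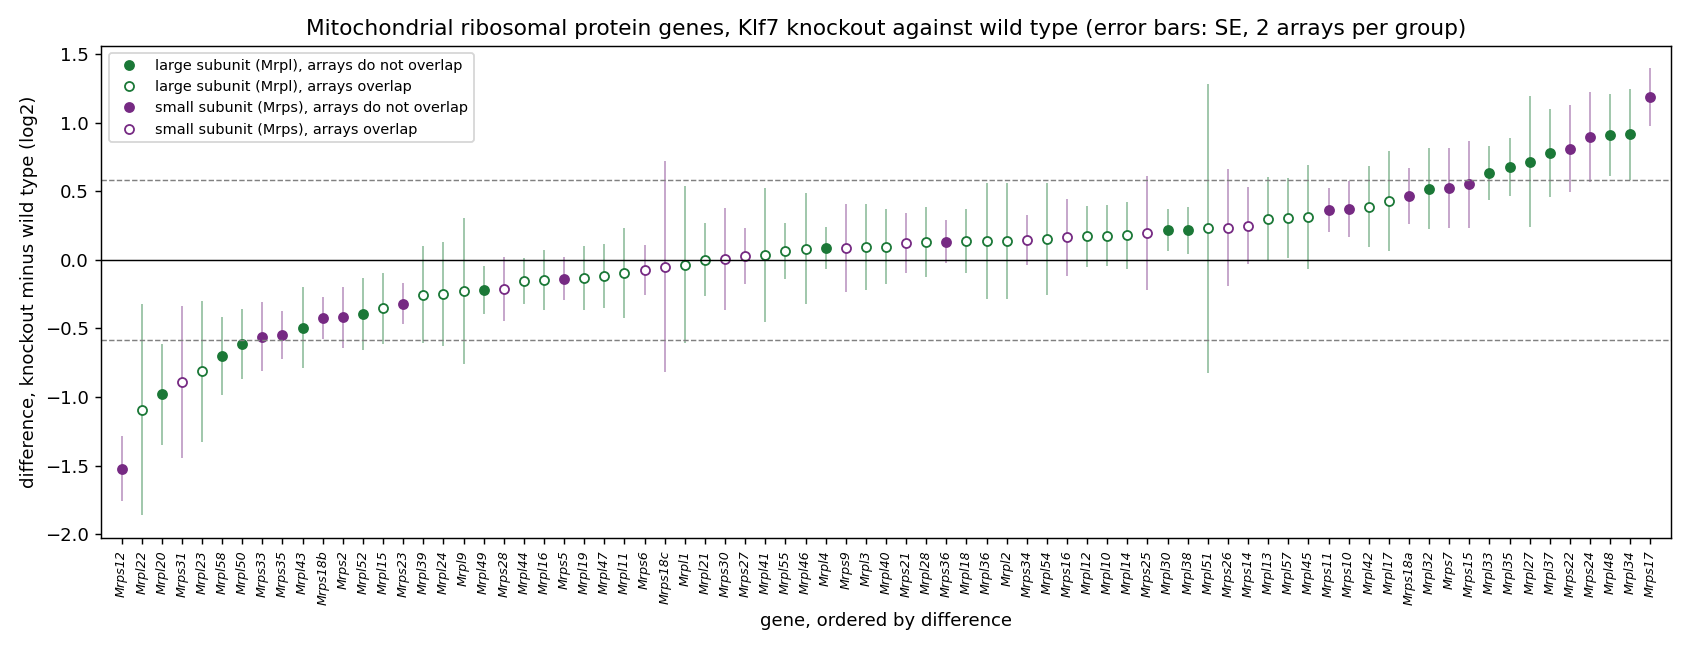
Difference between knockout and wild type (log2, y axis) for each of the 77 members, ordered along the x axis, with green for large and purple for small subunit genes. Error bars are the moderated SE (2 arrays per group), filled points mark genes whose arrays do not overlap between groups, and dashed lines mark 1.5-fold; values run from -1.52 (Mrps12) to 1.19 (Mrps17), with genes of both subunits at each end.

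Labels and cells were checked on the same arrays. Klf7 itself read 6.59 and 6.18 in knockout against 5.95 and 6.10 in wild type, which checks nothing if its probe set lies outside the deleted part. The division of the arrays by genotype was also that by sex-linked transcripts, with Xist at 11.76 and 11.58 in knockout against 5.24 and 4.80 in wild type, and the Y-linked Eif2s3y, Uty and Kdm5d between 2.86 and 5.26 in knockout against 6.13 to 8.11 in wild type. Genotype and these transcripts cannot be told apart in any difference given here. Of 12 KLS markers 10 were measured, 9 of them above the median level. Their summed intensity was 4970 and 4971 in knockout against 4025 and 3605 in wild type. Taken singly, 8 of the 10 read higher and 2, Mecom and Gata2, read lower. The summed T cell markers (4 of 5 measured) stood lower in knockout, at 194.3 and 200.3 against 220.3 and 262.9, as did the 4 of 5 measured monocyte and macrophage markers, at 364.6 and 365.5 against 379.0 and 416.1. For granulocyte, B cell, erythroid and megakaryocyte markers the sums overlapped between the groups. Of the granulocyte markers 3 read lower and 4 higher. Among them Elane, which has little weight in the sum, was lower without overlap, at 5.04 and 5.41 in knockout against 6.83 and 5.75 in wild type. The erythroid Slc4a1 and the megakaryocyte Itga2b read higher without overlap. Of the T cell markers 2 lay above the median level, as did 2 of the monocyte and macrophage markers. Taken singly, 4 of 4 T cell markers read lower. Of the monocyte and macrophage markers 3 read lower and Cd68 higher, with 0 of the 4 lower or higher without overlap, so their separation lay in the sum alone. The part of these markers in the differences of the ribosomal genes was not tested.

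The median gap between the arrays of a group was 0.37 for the members in knockout and 0.37 in wild type, where the median absolute difference between genotypes was 0.23. For 57 members (74.0%) the gap within at least 1 group exceeded the difference between the groups, as it did for 78.5% of all named genes. Between the knockout arrays 11 members lay at least 2-fold apart and between the wild-type arrays 9 did, which is 14.3% and 11.7%, against 5.61% and 7.30% of named genes above the median level. Between the group means 3 members lay at least 2-fold apart at the probe sets used, namely Mrps12, Mrps17 and Mrpl22. That is 3.9%, against 1.46% of all named genes and 2.3% of those above the median level.

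The gaps within the groups leaned one way. Knockout replicate 1 read above knockout replicate 2 for 52 of 77 members (67.5%), and wild-type replicate 1 read above wild-type replicate 2 for 51 (66.2%), where named genes above the median level gave 51.1% and 53.5%. In 35 members (45.5%) both held, against 28.4% of those genes, and the reverse order held in both groups for 9 members (11.7%), against 23.7%. Measured from each gene's mean over the 4 arrays, the median member stood at 0.17 on knockout replicate 1 and 0.03 on wild-type replicate 1, and at -0.13 and -0.14 on knockout and wild-type replicate 2. Over all named genes above the median level these medians lay between -0.03 and 0.01. Whether equal numbers mark a shared animal, sort or amplification is not in the labels, and across the 77 members the gaps of the 2 groups correlated at only 0.126, where genes of 1 array share its library and are no replicates.

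**Figure D2:**
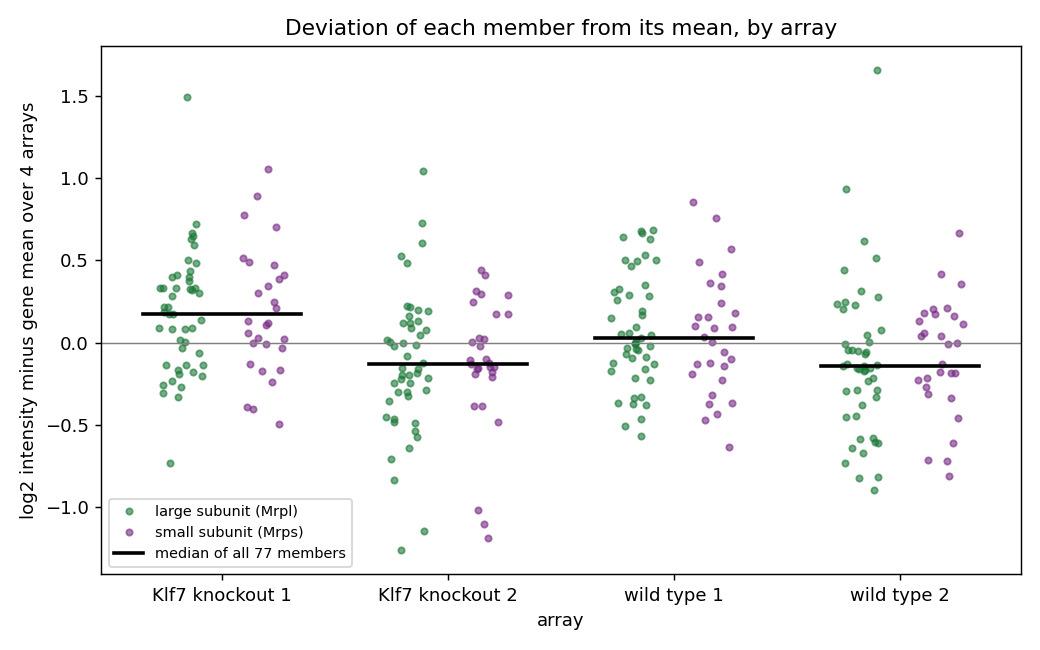
Log2 intensity of each member minus its mean over the 4 arrays (y axis), by array (x axis), with green points for large and purple for small subunit genes and a black bar at the median of all 77. The median bars stand at 0.17 for knockout replicate 1, -0.13 for knockout replicate 2, 0.03 for wild-type replicate 1 and -0.14 for wild-type replicate 2.

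A gap of at least 2-fold in both groups, with replicate 1 above replicate 2, was found in 3 members, and in 45 of the 9969 named genes above the median level. Mrpl51, a mitochondria-specific protein of the large subunit, read 9.23 and 6.47 in knockout against 8.40 and 6.84 in wild type. Mrpl9 read 6.77 and 5.72 in knockout against 7.04 and 5.90 in wild type. Mrpl1, the counterpart of the protein on the bacterial stalk through which spent transfer RNA leaves, read 7.0 and 5.95 in knockout against 7.17 and 5.85 in wild type. In these 3 genes, singled out after their values were seen, the ranges of the genotypes overlapped while the arrays within a genotype stood far apart.

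The largest difference among the members was that of Mrps12, in the small subunit. Its protein sits at the decoding centre, where the bacterial counterpart governs the accuracy of translation and the response to streptomycin. Mrps12 read 7.23 and 6.71 in knockout against 8.59 and 8.40 in wild type. Both knockout arrays lay more than 1 log2 unit below both wild-type arrays, and the gaps within the groups were 0.52 and 0.19. The difference was -1.52 ± 0.24 (SE; 95% confidence interval -2.15 to -0.90), which is 2.87-fold, with a limma adjusted p of 0.945. Leaving out each array in turn gave -1.78 to -1.26. A single probe set measured the gene, in the expected place among its chromosome 7 neighbours.

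Mrps12 starts head to head with Sars2, which encodes the mitochondrial seryl-tRNA synthetase. Their annotated starts lie 147 bases apart on opposite strands of chromosome 7, and both genes therefore leave the same short stretch of DNA. Sars2 read 6.00 and 6.26 in knockout against 6.05 and 5.78 in wild type, for a difference of 0.21 ± 0.19 with overlapping arrays. The neighbours thus had differences of opposite sign, and that contrast was not tested. A stretch of 135 bases between the 2 genes is shown because both are transcribed away from it. This stretch is shorter than the 147 bases between the starts and so does not cover all of them. It is chr7:28741822-28741956 in GRCm38.p6, from RefSeq, on the minus strand and so in the direction of Mrps12, with capitals for letters that match a motif searched here, namely 1 GC box near the Sars2 end and 3 CCAAT boxes.
Mrps12 and Sars2: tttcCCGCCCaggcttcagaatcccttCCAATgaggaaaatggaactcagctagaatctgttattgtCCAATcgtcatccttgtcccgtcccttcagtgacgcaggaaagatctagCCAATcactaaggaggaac

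At the opposite end stood Mrps17, another small subunit protein with a bacterial counterpart, which binds ribosomal RNA early in assembly. It read 7.23 and 6.86 in knockout against 5.98 and 5.74 in wild type. Both knockout arrays lay clearly above both wild-type arrays, with gaps of 0.37 and 0.25 within the groups. The difference was 1.19 ± 0.21 (95% confidence interval 0.64 to 1.74), 2.28-fold, with a limma adjusted p of 0.945, and it lay between 1.00 and 1.37 when each array was left out. The 250 bases before its start are chr5:129715247-129715496 in GRCm38.p6, from RefSeq, on the plus strand. They are shown for comparison with the Mrps12 stretch, and hold 2 CCAAT boxes, 1 GC box and 1 CACCC box, in capitals.
Mrps17: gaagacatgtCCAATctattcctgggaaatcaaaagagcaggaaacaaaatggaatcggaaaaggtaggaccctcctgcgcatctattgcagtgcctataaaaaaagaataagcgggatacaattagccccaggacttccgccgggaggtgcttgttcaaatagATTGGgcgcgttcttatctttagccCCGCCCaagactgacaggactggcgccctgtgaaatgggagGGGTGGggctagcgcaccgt

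By symbol, 18 small subunit members have bacterial counterparts, among them Mrps18a, whose protein sits in the large subunit despite its name. Of these, 7 read lower and 11 higher in knockout, with a median of 0.14. Without overlap, 4 were lower (22.2%) and 7 higher (38.9%), against 14.9% and 17.9% of named genes above the median level. In limma 0 of the 18 passed. Mrps24, which lies where messenger RNA enters the subunit, read 8.16 and 7.27 in knockout against 6.83 and 6.81 in wild type. Knockout replicate 1 stood far above the rest, so the difference of 0.90 ± 0.33 became 0.45 without it. Mrps15 behaved alike, with 7.58 and 6.73 in knockout against 6.56 and 6.65 in wild type, and its difference of 0.55 ± 0.32 became 0.13 without knockout replicate 1. Mrps7, a protein of the head that contacts messenger and transfer RNA, read 6.85 and 6.95 in knockout against 6.00 and 6.75 in wild type. Here wild-type replicate 1 was the low array, and the difference of 0.53 ± 0.29 became 0.15 without it.

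Among the lower members of that group, Mrps18b was the most even within genotypes. Mammals carry 3 genes, Mrps18a, Mrps18b and Mrps18c, related to a single bacterial protein. Mrps18b read 6.92 and 6.99 in knockout against 7.41 and 7.35 in wild type, with gaps of 0.06 in each group, a difference of -0.42 ± 0.15 and values of -0.45 to -0.39 when each array was left out. Mrps18a read 6.83 and 7.25 in knockout against 6.62 and 6.54 in wild type, for a difference of 0.47 ± 0.21. Mrps18c was among the least stable members, at 10.61 and 8.45 in knockout against 9.19 and 9.97 in wild type. Its knockout arrays enclosed the wild-type arrays, and the difference of -0.05 ± 0.77 ran from -1.13 to 1.03 when each array was left out. The 3 related genes thus differed from each other in sign or in spread, and no test of that was made.

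Mrps2, which helps hold the subunit's head and body together, read 6.69 and 7.08 in knockout against 7.46 and 7.16 in wild type, for a difference of -0.42 ± 0.22. Mrps5, near the messenger RNA entry, read 7.08 and 6.96 in knockout against 7.19 and 7.13 in wild type, for a difference of -0.14 ± 0.16, and its dimmer probe set gave 0.03. The groups of both genes were separated only narrowly.

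By symbol, 11 small subunit members are known from mitochondria alone, among them Mrps30, whose protein sits in the large subunit as well. They had a median of 0.03, with 4 lower and 7 higher, which was -0.32 without wild-type replicate 2 and -0.10 without knockout replicate 1. Without overlap, 3 were lower (27.3%) and 2 higher (18.2%), against 14.9% and 17.9% of named genes above the median level. Mrps22, in which inherited mutations cause mitochondrial disease, read 7.72 and 7.49 in knockout against 7.21 and 6.39 in wild type. Its difference of 0.81 ± 0.32 became 0.40 without the low wild-type replicate 2. On the lower side, Mrps35 read 6.31 and 6.55 in knockout against 7.05 and 6.91 in wild type, for a difference of -0.55 ± 0.18 that stayed between -0.67 and -0.43 with each array left out. Mrps23 read 5.70 and 5.72 in knockout against 6.03 in both wild-type arrays, so that the arrays of each genotype nearly coincided around a difference of -0.32 ± 0.15.

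Mrps33 read 8.0 and 7.78 in knockout against 8.74 and 8.16 in wild type, for a difference of -0.56 ± 0.25 that became -0.27 without wild-type replicate 1. Mrps31 had the lowest value of this group, at 6.96 and 5.47 in knockout against 7.41 and 6.79 in wild type. Its knockout arrays lay 1.49 apart, wider than the difference of -0.89 ± 0.55, which became -0.14 without knockout replicate 2. Mrps36, whose product has since been described as a part of the 2-oxoglutarate dehydrogenase complex, differed by 0.13 ± 0.16.

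**Figure D3:**
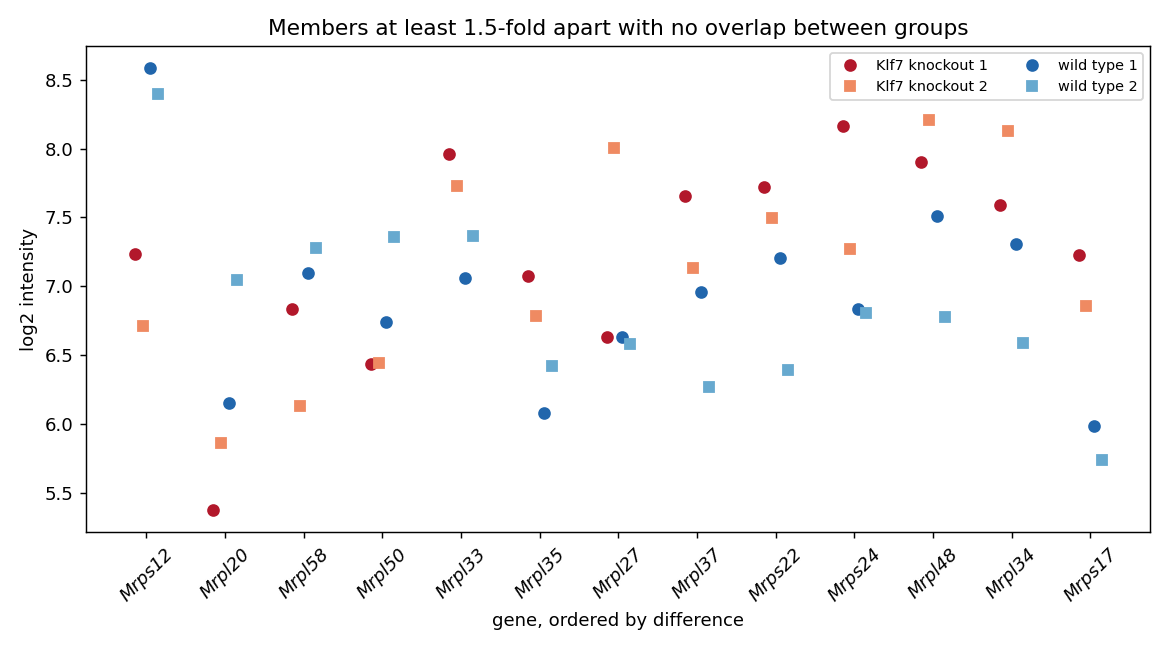
Log2 intensity (y axis) on each of the 4 arrays for the 13 members (x axis) at least 1.5-fold apart without overlap between genotypes, with red and orange for knockout replicates 1 and 2 and dark and light blue for wild-type replicates 1 and 2. Mrps12 and Mrps17 show the widest separation of genotypes. At the probe set used, Mrpl27 rests on knockout replicate 2 alone, its other 3 arrays lying between 6.58 and 6.63.

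In the large subunit, 30 members have bacterial counterparts, and 11 of them read lower and 19 higher in knockout, with a median of 0.11. Without overlap, 1 was lower (3.33%) and 7 were higher (23.3%), against 14.9% and 17.9% of named genes above the median level. Under repeated quantile normalization and under cyclic loess 3 were lower. Mrpl34 read 7.59 and 8.13 in knockout against 7.31 and 6.59 in wild type, for a difference of 0.91 ± 0.33 that became 0.55 without wild-type replicate 2. Mrpl35 read 7.07 and 6.78 in knockout against 6.08 and 6.42 in wild type, for a difference of 0.68 ± 0.21 that stayed between 0.51 and 0.84 with each array left out. Mrpl33 read 7.96 and 7.73 in knockout against 7.06 and 7.37 in wild type, for a difference of 0.63 ± 0.20, with 0.48 to 0.78 over the same settings. Each of Mrpl33, Mrpl34 and Mrpl35 read higher on both knockout arrays than on either wild-type array, and 0 of the 30 passed in limma.

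Mrpl27, whose bacterial counterpart reaches towards the peptidyl transferase centre, read 6.63 and 8.01 in knockout against 6.63 and 6.58 in wild type. At this probe set, the brighter of 2, only knockout replicate 2 stood apart, and the difference of 0.71 ± 0.48 became 0.03 without it. At the dimmer one both knockout arrays lay above both wild-type arrays, at 5.60 and 6.77 against 5.15 and 5.21. Mrpl32, which is cut by the m-AAA protease before it joins the ribosome, read 6.37 and 6.08 in knockout against 6.06 and 5.35 in wild type. Its difference was 0.52 ± 0.29 and became 0.17 without wild-type replicate 2, the low array.

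The only member of this group that was lower without overlap was Mrpl20, a protein whose bacterial counterpart is needed early in the assembly of the large subunit. It read 5.37 and 5.86 in knockout against 6.15 and 7.04 in wild type, for a difference of -0.98 ± 0.37, which became -0.54 without wild-type replicate 2. Mrpl22, at the polypeptide tunnel, had the largest negative value of the large subunit at -1.09 ± 0.77. It read 6.44 and 5.86 in knockout against 6.13 and 8.35 in wild type, and without wild-type replicate 2 the difference was 0.02. Mrpl23 read 8.19 and 6.71 in knockout against 8.36 and 8.17 in wild type, for a difference of -0.81 ± 0.51 that became -0.07 without knockout replicate 2. Single arrays therefore set the values of Mrpl22 and Mrpl23.

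The 18 large subunit proteins known from mitochondria alone gave 7 lower and 11 higher, with a median of 0.09, which was -0.22 without knockout replicate 1 and -0.09 without wild-type replicate 2. Without overlap, 5 were lower (27.8%) and 3 higher (16.7%), against 14.9% and 17.9% of named genes above the median level. Under repeated quantile normalization and under cyclic loess 4 were lower. Mrpl48 had the highest value, at 7.90 and 8.21 in knockout against 7.51 and 6.78 in wild type. The difference was 0.91 ± 0.30 and became 0.54 without wild-type replicate 2. Mrpl37 read 7.65 and 7.13 in knockout against 6.96 and 6.27 in wild type, for a difference of 0.78 ± 0.32 that became 0.44 without the same array.

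Lower in this group was Mrpl58, a peptidyl-tRNA hydrolase built into the ribosome that can release stalled chains. It read 6.84 and 6.13 in knockout against 7.10 and 7.28 in wild type, for a difference of -0.70 ± 0.28, which became -0.35 without knockout replicate 2. Mrpl50 read 6.43 and 6.44 in knockout against 6.74 and 7.36 in wild type, for a difference of -0.61 ± 0.25 and -0.30 without wild-type replicate 2. Mrpl52 read 6.98 and 7.13 in knockout against 7.13 and 7.77 in wild type, for a difference of -0.39 ± 0.26 and -0.07 without that array. Mrpl49 differed by -0.22 ± 0.18. For Mrpl50 and Mrpl52 the wild-type arrays were 0.62 and 0.64 apart, wider than the differences themselves.

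Members were also grouped by their place in the large subunit. Of the stalk that binds translation factors, 4 of 5 listed genes were measured, and 3 read higher and 1 lower with a median of 0.16. Mrpl10, the base of the stalk, read 7.52 and 7.03 in knockout against 7.05 and 7.14 in wild type, for a difference of 0.18 ± 0.22. Mrpl11 read 8.13 and 7.24 in knockout against 7.78 on both wild-type arrays, for a difference of -0.10 ± 0.33. Mrpl12, the protein that contacts factors and has also been described on the mitochondrial RNA polymerase, differed by 0.17 ± 0.22. All 4 stalk genes were below 0 without knockout replicate 1 and above 0 without knockout replicate 2. For each of them the 2 knockout arrays thus lay on opposite sides of the wild-type mean. Without wild-type replicate 1, 2 were below 0 and 2 above.

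Around the exit of the polypeptide tunnel, 5 of 7 genes read lower, with a median of -0.15 and no member without overlap, though 2 were lower without overlap under repeated quantile normalization and under cyclic loess. Mrpl17 was highest there at 0.43 ± 0.36, with 6.48 and 5.47 in knockout against 5.55 on both wild-type arrays. The median of the 7 was 0.11 without wild-type replicate 1. Of the central protuberance, the crest of the large subunit, 7 of the 7 listed genes read higher, with a median of 0.13. They ran from 0.07 for Mrpl55 to 0.91 for Mrpl48. The list may be incomplete, and Mrpl52 and Mrpl58, both lower in knockout, were not on it. Among the 7, 3 (42.9%) did not overlap (Mrpl27, Mrpl38 and Mrpl48), against 17.9% of named genes above the median level that read higher without overlap. Higher readings held for 5 of 7 without knockout replicate 2, without wild-type replicate 1 and without wild-type replicate 2. With only probe sets whose neighbours lie on the gene's chromosome, 6 of 6 read higher, Mrpl48 having none. No test was made of these small groups.

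Some members were represented by probe sets that may not lie on the gene. Probe set IDs of this array follow the genome, and for 7 of the 85 probe sets the 6 nearest named probe sets on each side came mostly from another chromosome than that of the gene. Of these, 5 were the probe set used, for Mrpl27, Mrpl41, Mrpl48, Mrpl51 and Mrps33. The RefSeq gene table lists a pseudogene named Mrpl27-ps on chromosome 18 and one named Mrpl48-ps on chromosome 4, the same chromosomes as those neighbours, and which copy the signal came from was not tested. In place, Mrpl27 read 5.60 and 6.77 in knockout against 5.15 and 5.21 in wild type, Mrpl51 read 6.97 and 5.49 against 6.10 and 5.04, and Mrps33 read 7.94 and 7.58 against 8.35 and 7.99. The highest array was the same at both probe sets of Mrpl27 and of Mrpl51. At the in-place probe set of Mrpl27 knockout replicate 1 also lay above both wild-type arrays, and the difference was 1.005 ± 0.41. The in-place probe set of Mrps33 gave -0.41, with knockout and wild type still apart, and Mrpl48 had none in place.

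Gene neighbourhoods were examined further because mitochondrial ribosomal protein genes are known to share start regions with other genes. RefSeq promoter entries were found for 68 of the 77 members, and 26 of these started head to head with another gene within 1000 bases. In 23 pairs both genes were measured, and 13 of the 23 had differences of the same sign. Without overlap on both sides, 2 pairs differed in the same direction and 1 in opposite directions. Of all named genes taken singly, 33.2% did not overlap in either direction. Shares over other gene pairs were not computed, so these counts have no reference. In the same direction lay Mrps7 with Gga3, a Golgi adaptor gene, whose start lies 224 bases away and which read 7.42 and 7.62 in knockout against 7.13 and 6.41 in wild type, for a difference of 0.75 ± 0.29. So did Mrpl49 with Fau, a gene of the cytosolic ribosome 192 bases away, which read 10.90 and 10.62 in knockout against 10.94 and 11.08 in wild type, for a difference of -0.25 ± 0.18.

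The pair that parted was Mrpl43 with Twnk, which encodes the helicase that unwinds mitochondrial DNA, 116 bases between starts. Mrpl43 read 5.36 and 5.24 in knockout against 6.18 and 5.41 in wild type, for a difference of -0.50 ± 0.30. Twnk read 5.82 and 6.97 in knockout against 5.69 and 5.44 in wild type, for a difference of 0.83 ± 0.41. A single array stood out in each gene, wild-type replicate 1 for Mrpl43 and knockout replicate 2 for Twnk. Ptcd2, 108 bases from Mrps27, read 6.76 and 5.56 in knockout against 6.80 and 5.02 in wild type, with replicate 1 above replicate 2 in both groups, whereas Mrps27 differed by 0.03 ± 0.20.

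A pair within the set itself is Mrps11 and Mrpl46, which start 42 bases apart on chromosome 7 and place a small and a large subunit gene on one shared region. Mrps11 read 6.71 and 6.84 in knockout against 6.36 and 6.46 in wild type, for a difference of 0.36 ± 0.16 without overlap. Mrpl46 read 7.10 and 7.46 in knockout against 7.74 and 6.65 in wild type, for a difference of 0.08 ± 0.41. The wild-type arrays of Mrpl46 enclosed its knockout arrays, a pattern not seen in Mrps11. The whole stretch between the genes, shown as the only one that 2 members share, is chr7:78783090-78783130 in GRCm38.p6, from RefSeq, on the plus strand, in the direction of Mrps11, with its GC box in capitals.
Mrps11 and Mrpl46: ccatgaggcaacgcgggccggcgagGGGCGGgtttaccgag

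**Figure D4:**
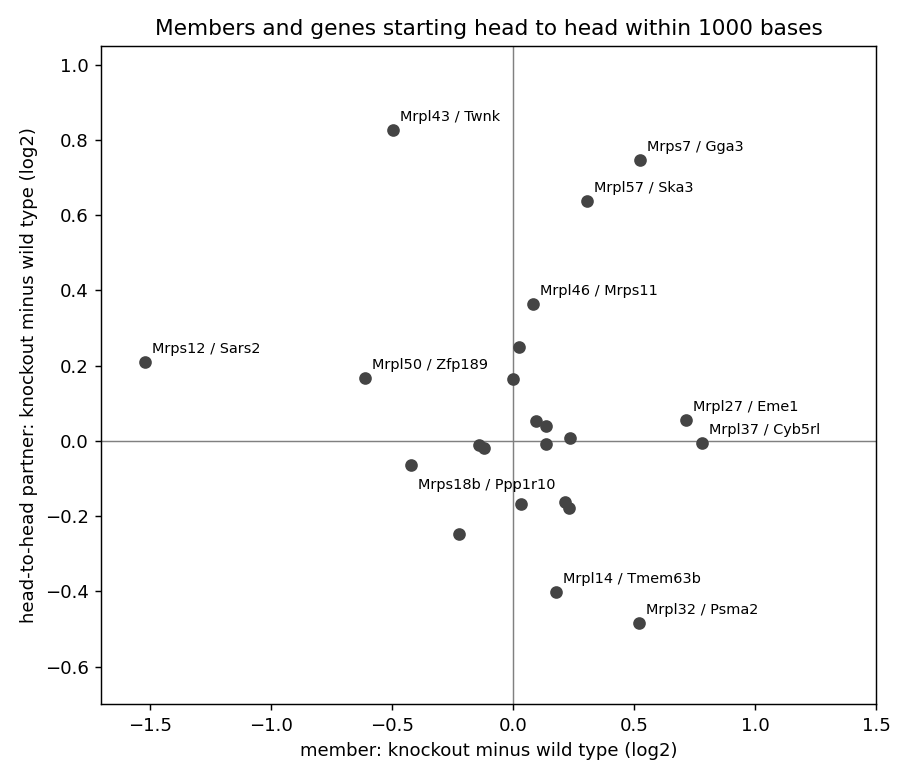
Knockout minus wild type (log2) of each member (x axis) against that of the gene starting head to head with it (y axis), 1 point for each of 23 pairs. Mrps12 at -1.52 stands beside Sars2 at 0.21, Mrpl43 and Twnk lie on opposite sides of 0, and Mrps7 and Gga3 lie on the same side.

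Motifs were searched in the RefSeq windows of 250 bases before to 50 bases after each start, on both strands and with overlapping matches allowed. The ETS and GABP core CCGGAAG occurred in 33.8% of the members' 74 windows and in 8.86% of all 32851 windows. The NRF1 motif, with its central position free, occurred in 17.6% against 4.6%, the YY1 core AAGATGG in 17.6% against 6.34%, the GC box GGGCGG in 52.7% against 35.7% and the CCAAT box in 39.2% against 37.4%. The CACCC box CCACCC, a core bound by Kruppel-like factors, occurred in 24.3% against 31.5%. Members with a CACCC box in a window (17 genes) had a median difference of 0.13 and those without 0.10, and for the GC box (34 genes) the medians were 0.15 and 0.02. For the YY1 core (13 genes) they were 0.39 and 0.09, and for the ETS and GABP core (25 genes) 0.12 and 0.10. The NRF1 motif (13 genes) gave 0.18 and 0.08, and the CCAAT box (26 genes) 0.14 and 0.05. For every motif searched the median was thus higher with it than without. These are counts of letters, and no test of a factor was made.

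Genes that work with the mitochondrial ribosome were described in the same way, and 0 of the 77 measured in these 5 lists passed in limma, with an unadjusted p under 0.05 in 1. That gene was Rcc1l, from the assembly list, with a difference of -0.48 ± 0.15. The 4 measured mitochondrial ribosomal proteins with other names all read higher in knockout, with a median of 0.28. Ptcd3, a protein at the messenger RNA entry, read 6.92 and 6.86 in knockout against 6.53 and 6.52 in wild type, for a difference of 0.36 ± 0.15, and Gadd45gip1 differed by 0.39 ± 0.24. Wild-type replicate 2 was the lowest array for all 4. Of 27 measured genes for assembly of the ribosome and modification of its RNA, 15 read lower and 12 higher, with a median of -0.03. Eral1, a GTPase that chaperones the small subunit's ribosomal RNA, read 5.97 and 5.76 in knockout against 7.19 and 6.08 in wild type, for a difference of -0.77 ± 0.40. Gtpbp10, a GTPase of large subunit assembly, differed by 0.70 ± 0.76.

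The 14 translation factors gave 6 lower and 8 higher with a median of 0.19. Mtrf1, a release factor homologue, read 6.63 and 6.99 in knockout against 6.23 and 6.37 in wild type, for a difference of 0.51 ± 0.20, and Mrrf, which recycles ribosomes, differed by -0.50 ± 0.42. Of 19 measured genes for charging mitochondrial transfer RNAs, 7 read lower and 12 higher, with a median of 0.09. Fars2, the phenylalanine enzyme, differed by 0.52 ± 0.29 and Cars2, the cysteine enzyme, by 0.30 ± 0.17. The 13 regulators of mitochondrial transcription and biogenesis gave 6 lower and 7 higher with a median of 0.02, with Nrf1, an activator of many nuclear genes for mitochondria, at 0.46 ± 0.37 and Tfb2m, a mitochondrial transcription factor, at -0.27 ± 0.16. Over all named genes the median was -0.03.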

How the data were processed

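Total RNA of sorted KLS cells went through NuGen Ovation amplification and biotin labelling, as the labels' protocols state. The authors deposited a table of 1 intensity per probe set and array. Per the submitters' processing notes, the tools were RMA and Affymetrix Expression Console. The values reached 17720.8, so they were taken as linear and their log2 was used. Median intensity lay between 51.01 and 52.26, and no further normalization was applied. Of 35554 probe sets, the 6615 before the first annotated one were assumed to be controls and left out, and 28939 were tested. The platform annotation of 2016 gave 1 symbol for 21789. Groups came from the sample titles. Knockout was compared with wild type with limma 3.58.1 in R 4.3.3 (lmFit, eBayes, two-sided, Benjamini-Hochberg over all probe sets, threshold 0.05) on 2 residual degrees of freedom. The members and lists were chosen with earlier results of these data known.

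Named members were, by rule, up to 12 per direction without overlap and above the median level, the 6 with the widest range within a group, the extremes of each structural group and genes whose probe sets differed in sign. Other members named, and the head-to-head pairs, were chosen after their values were seen. Of each related list, the 2 genes with the largest absolute difference among those above the median level were named, and Rcc1l was added. Dimmer genes could differ more, as Nars2 (0.93 ± 0.41) and Ddx28 (1.12 ± 0.75) did. On simulated data (10 comparisons of 28939 probe sets), limma called 0.299% of 2-fold changes, 34.2% of 4-fold changes and 90.8% of 16-fold changes. The alternatives tried comprised a filter that drops dim probe sets, quantile normalization again, cyclic loess, an offset of 32, an intensity trend with and without robust estimation, a replicate block, the mean of all probe sets and each array left out. Detection calls were not used, and the number of arrays limits the precision.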

Additional observations from a re-analysis of the deposited data

How the results depend on the processing

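Using only probe sets in place was chosen after seeing the data. The number of members past the limma threshold was 0 in all 13 alternatives. Leaving out each array in turn moved the median difference of the members between -0.086 and 0.19, that of the large subunit between -0.08 and 0.21 and that of the small subunit between -0.091 and 0.18. The count of members lower in knockout ran from 27 to 46 and the count at least 1.5-fold apart without overlap from 19 to 21, where fewer arrays make overlap easier to avoid; as reported they were 29 and 13. Members at least 1.5-fold lower ran from 5 to 13 and higher ones from 7 to 16, reported as 4 and 9, and with an offset of 32 the lower ones came to 2. Under the other alternatives the medians of the members stayed between 0.08 and 0.13, and the counts of members lower in knockout and of those at least 1.5-fold apart stayed within 1.5 times those reported. The intensity trend, with and without robust estimation, and the replicate block change only the errors, so every difference stayed as reported there. A gene with 1 probe set also kept its value when dim probe sets were dropped, probe sets averaged or only those in place used. Such values could not reverse. Of 428 values of the 33 named members, 419 kept their sign and 9 reversed, every reversal coming from leaving out 1 array. The cause was not tested. These ranges were -0.070 to 0.42 for Mrpl10, -0.54 to 0.35 for Mrpl11, -0.0735 to 0.935 for Mrpl17, -2.21 to 0.021 for Mrpl22, -1.15 to 1.61 for Mrpl51, -0.14 to 0.27 for Mrpl55 and -1.13 to 1.03 for Mrps18c. With the replicate block 0 members passed, and the median of 0.10 could not change. Same-numbered arrays deviated together with a correlation of 0.0434 across probe sets, and what an equal number marks was not tested. Signal over background was not used here, and every member lay at or above 4.81 in mean log2 intensity, where 5% of probe sets fall under 3.15.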

Other observations

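A probe set annotated to both Ccdc142 and Mrpl53 was left out of the members because it has 2 symbols. Mrpl53 is a large subunit protein of the stalk region. This probe set read 6.06 and 5.84 in knockout against 5.76 and 6.09 in wild type, for a difference of 0.03 ± 0.20 (SE, n = 2 per group) with overlapping arrays.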
